A study of Tursiops truncatus with 28 samples.

Results

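The libraries described here are the 9 sequenced from skin of female common bottlenose dolphins (Tursiops truncatus) sampled in Barataria Bay, Louisiana, in July 2016, out of 28 skin libraries in the series. They were divided by sampling date alone. The late July group holds 4 animals sampled on 15 July (late 1), 18 July (late 2 and late 3) and 19 July (late 4). The early July group holds 5 animals sampled on 13 July (early 1), 11 July (early 2, early 3 and early 4) and 12 July (early 5). Replicate numbers were given in accession order and pair no samples. Every library came from a different wild animal, and the labels give no treatment, age or health measure for any of them. Late 1 has an earlier year in its title than in its sampling date, and the date was used. The remaining 19 libraries came from females and males sampled in June 2017 (8 and 3) and September 2017 (5 and 3), and their females serve as points of comparison outside July 2016.

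Cetacean skin has a thick epidermis without hair or sweat glands, renewed by keratinocytes that divide at its base and are shed from its surface, over a dermis of fibroblasts and collagen that grades into blubber. RNA from a piece of skin sums over all these cells, so that fewer cells of a type and less RNA per cell cannot be told apart. The comparison of late with early days asks how far skin RNA of one sex in one collection session differs between days about a week apart (mean sampling dates 17.5 and 11.6 July).

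The deposited table gives FPKM, a count of sequenced fragments scaled by locus length and library size, for 24091 loci. The loci are unnamed intervals on scaffolds of the genome version NIST Tur_tru v1, and 0 of them lie on a sequence listed in the gene table at hand. Loci are therefore described by scaffold and position, with the first base counted as 1. Gene functions, and the skin cell markers that would check the tissue label, were not analysed here. Levels were tested at the 13192 loci that averaged 1 FPKM or more across the 28 animals, and 17 of these were listed at 0 in all 9 July libraries.

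Measures of each whole library were compared before single loci. Relative depth, taken from the steps between low values, was 1.06, 1.162, 0.981 and 1.13 in late 1 to late 4, against 0.958, 0.807, 1.06, 0.833 and 1.37 in early 1 to early 5. The early group spanned the wider range and enclosed all late values. Loci above 0 FPKM numbered 17710 to 18047 in the late libraries and 17536 to 18173 in the early ones. Summed FPKM was 892672 ± 52142 (SD, n = 4) in late July and 942333 ± 85348 (SD, n = 5) in early July. Each animal's 10 highest loci together made up 22.7%, 25.6%, 22.9% and 23.2% of summed FPKM in late 1 to late 4, against 26.3%, 34.6%, 22.2%, 26.9% and 32.0% in early 1 to early 5. This measure had the smallest unadjusted p of the 5 compared, with a mean of 23.6% in late July and 28.4% in early July, a difference of -4.79 percentage points (exact permutation test over all 126 splits, two-sided, p = 0.0952, adjusted p = 0.437 over 5 measures). All 4 late libraries lay below 4 of the 5 early ones, and early 3 had the lowest value of all. None of the 5 measures differed past the threshold of 0.05, and the smallest two-sided p that 4 against 5 libraries allow is 0.0159. The p-values were 0.286 for the mitochondrial share, 0.349 for summed FPKM and for loci above 0, and 0.524 for relative depth. Without early 3 the unadjusted exact p for the 10 most abundant loci was 0.0286, with a difference of -6.33 percentage points. Without early 5 the unadjusted exact p for loci above 0 was 0.0286, the smallest that 4 against 4 libraries allow, with a difference of 260.5 loci.

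**Figure D1:**
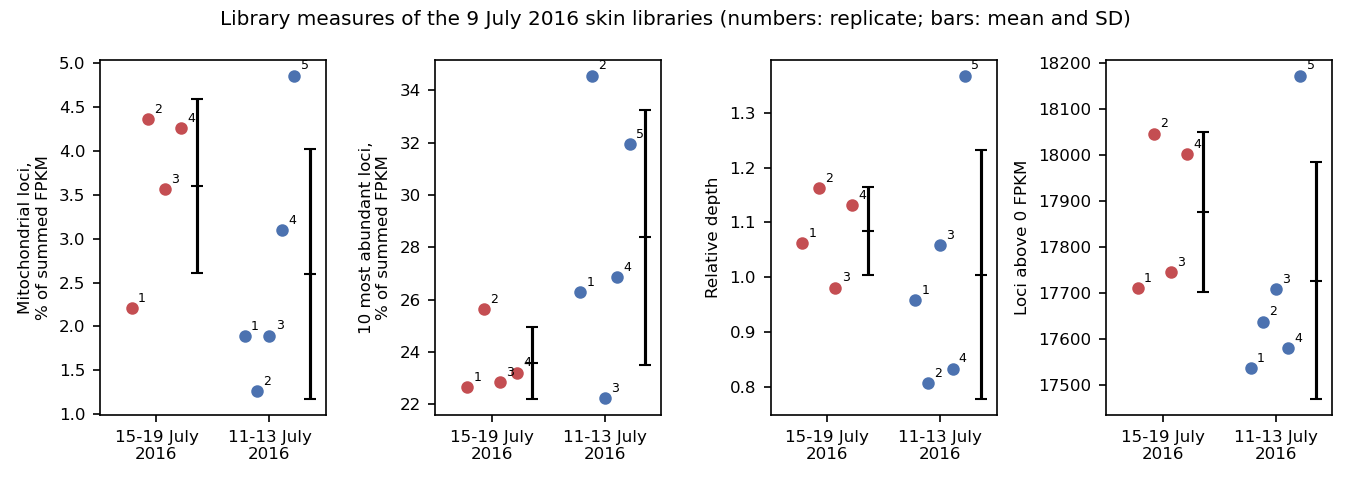
Share of summed FPKM on mitochondrial loci of at least 500 bases, share on the 10 most abundant loci, relative depth and loci above 0 FPKM, for the 4 late July (red, left) and 5 early July (blue, right) libraries. Points are libraries with their replicate number, bars are the mean and SD, and the groups overlap in all 4 panels, with early 5 highest in all but the share on the 10 most abundant loci.

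No locus passed the test between late and early July. At an adjusted p under 0.05 (limma on log2(FPKM + 1), Benjamini-Hochberg over all tested loci) 0 of 13192 loci were called, a share of 0%, and the smallest adjusted p was 0.910. Before adjustment, 650 loci or 4.93% had a p under 0.05, of which 211 (1.60%) were higher and 439 (3.33%) lower in late July. An unadjusted p under 0.01 was reached by 99 loci, or 0.750%. Without trend and robust settings limma also called 0 loci, with 654 at an unadjusted p under 0.05, and a fit of all 28 libraries in 6 groups of sampling period and sex called 0, with 664. Leaving out early 5 raised the number at an unadjusted p under 0.05 to 1042, and leaving out late 1 raised it to 1015, with 0 loci called in both cases.

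The differences themselves were small on the log2(FPKM + 1) scale. The median log2 difference, late minus early, was -0.04 over all tested loci, and its median size regardless of sign was 0.15. Only 188 loci, or 1.43%, had a mean difference beyond 2-fold of FPKM + 1, 93 of them higher and 95 lower in late July. This scale understates changes of low loci. Most of the loci at an unadjusted p under 0.05 were lower in late July on the deposited scale, where 32.5% were higher, but that split moved with the scaling: 54.1% were higher after median of ratios scaling, and 48.9% after quantile normalization.

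A missed threshold does not show that levels were alike, and the intervals say how much was measurable. The 95% interval of the log2 difference had a median half-width of 0.437. It lay wholly inside a 2-fold difference of FPKM + 1 in either direction at 11038 loci, or 83.7%. Inside a 1.5-fold difference it lay at 6293 loci, or 47.7%. The share inside 2-fold was 91.8% among the 919 loci averaging 100 FPKM or more. It was 65.9% among the 3773 with a mean of 1 to 5 FPKM, where adding 1 narrows differences and intervals alike. Among loci shorter than 5000 bases the share inside 2-fold was 64.6%, against 94.7% among those longer than 100000 bases. An observed difference smaller than the half-width of its interval did not reach an unadjusted p under 0.05 (limma). How often a true difference of a given size would be detected was not computed. The intervals are not adjusted for the number of loci tested, so a call needed a larger difference.

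**Figure D2:**
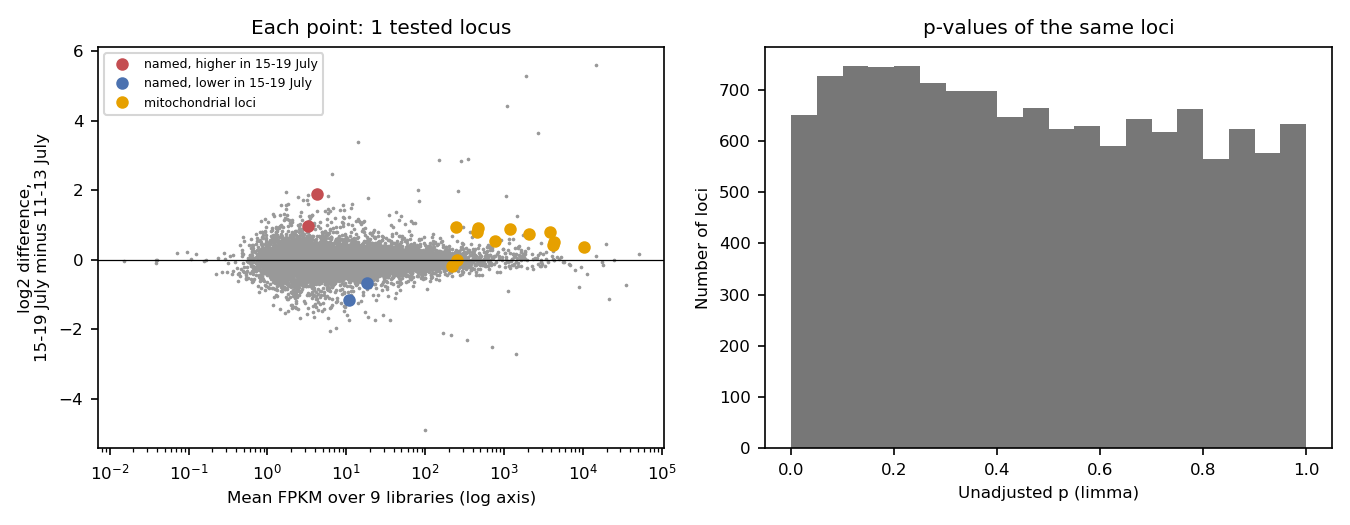
Left, the log2 difference (late minus early July) of each tested locus against its mean FPKM over the 9 libraries on a log axis, with the 4 loci named below and the mitochondrial loci coloured and loci at 0 in all 9 libraries left out. Right, unadjusted p-values (limma) of the 13192 loci in bins of equal width, where the bin under 0.05 holds 650 loci.

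Every late library lay above every early library at 58 loci (0.440%), and every late library lay below every early library at 138 (1.05%), together 196 loci or 1.49% of those tested. Their differences were modest, with a median log2 difference of 0.51 at the 58 loci and -0.39 at the 138. Beyond 2-fold of FPKM + 1 there were 8 that were higher and 3 that were lower in late July. For 4 and 5 libraries that do not differ by group, full separation in either direction has a probability of 0.0159, near the 1.49% found. The split of 58 and 138 was counted on the deposited scale alone. These 196 loci were spread over 92 scaffolds. The scaffold with the most, NW_017844429.1, held 11 of its 420 tested loci, or 2.62%, and NW_017842794.1 held 9 of 372, or 2.42%.

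The 4 loci that follow had the smallest unadjusted p in their direction among loci whose groups do not overlap. They were chosen for that separation, so their values are a description and none of them passed the test. The locus at positions 2522862 to 2528328 of scaffold NW_017842512.1, 5467 bases long, held 3.90, 4.96, 5.41 and 5.08 FPKM in late 1 to late 4, against 1.95, 2.04, 1.85, 1.93 and 2.21 FPKM in early 1 to early 5. The early values lay within a narrow band, and the lowest late value, from 15 July, was the one nearest to it. The means were 4.84 ± 0.653 FPKM (SD, n = 4) in late July and 1.99 ± 0.138 FPKM (SD, n = 5) in early July, a log2 difference of 0.96 (95% interval 0.60 to 1.31). This locus overlaps no other and had the smallest unadjusted p of all, 0.000109, with an adjusted p of 0.910 (limma). Its June 2017 females held 2.11 to 10.96 FPKM (median 2.99, n = 8) and its September 2017 females 2.41 to 7.34 FPKM (median 3.54, n = 5), so that the late July values lay within both sets, while all 5 early July values lay below the lowest September female and 4 of the 5 below the lowest June female. The neighbouring locus before it, at positions 2391332 to 2468956, held 20.7 FPKM on average in late July and 23.1 FPKM in early July (log2 difference -0.15, unadjusted p = 0.340, limma).

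The second locus that was higher in late July, at positions 1320002 to 1320612 of scaffold NW_017844682.1, is 611 bases long. It held 6.63, 11.2, 8.88 and 4.32 FPKM in late 1 to late 4, against 1.40, 1.49, 2.87, 1.51 and 0 FPKM in early 1 to early 5. The animals of early July lay low as a group and those of late July differed among themselves by more than the gap between the groups. The log2 difference was 1.89 (95% interval 1.07 to 2.72, adjusted p = 0.910, limma), the larger of the pair. June 2017 females ran from 6.76 to 71.8 FPKM (median 13.0, n = 8), and September 2017 females from 2.60 to 25.2 FPKM (median 6.27, n = 5). All 5 early July females lay below the lowest June 2017 female, and so did late 1 and late 4. The neighbour before it, at positions 1293683 to 1315368, was lower rather than higher on average in late July, at 9.25 FPKM against 14.2 FPKM in early July (log2 difference -0.57, unadjusted p = 0.00659, adjusted p = 0.910, limma). The neighbour after it, at positions 1334231 to 1399558, held 4.87 FPKM in late July and 5.51 FPKM in early July.

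On the lower side, the locus at positions 5 to 1134 of scaffold NW_017843774.1 held 9.05, 4.42, 4.62 and 5.9165 FPKM in late 1 to late 4, against 19.5, 19.3, 11.4, 14.1 and 9.75 FPKM in early 1 to early 5. Late 1, from 15 July, was the highest late library and early 5, from 12 July, the lowest early one, and these 2 nearly met. The means were 6.00 ± 2.14 FPKM (SD, n = 4) in late July and 14.8 ± 4.48 FPKM (SD, n = 5) in early July, a log2 difference of -1.17 (95% interval -1.72 to -0.62, adjusted p = 0.910, limma). June 2017 females held 4.83 to 17.1 FPKM (median 8.96, n = 8), a range that reached from late July levels to early July ones. The table lists no other locus on this scaffold.

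On scaffold NW_017843440.1, the locus at positions 23228386 to 23245104 held 13.8, 12.2, 16.1 and 11.5 FPKM in late 1 to late 4, against 23.5, 18.2, 26.5, 25.6 and 17.6 FPKM in early 1 to early 5. The log2 difference was -0.69 (95% interval -1.04 to -0.33, adjusted p = 0.910, limma), the smallest of the 4. September 2017 females spanned 11.7 to 25.7 FPKM (n = 5) and June 2017 females 11.7 to 25.1 FPKM (n = 8), so that late 4 lay just below both ranges and early 3 above both. The neighbour before it, at positions 23203895 to 23220804, held 50.0 FPKM in late July and 56.9 FPKM in early July (log2 difference -0.18, unadjusted p = 0.140, limma).

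**Figure D3:**
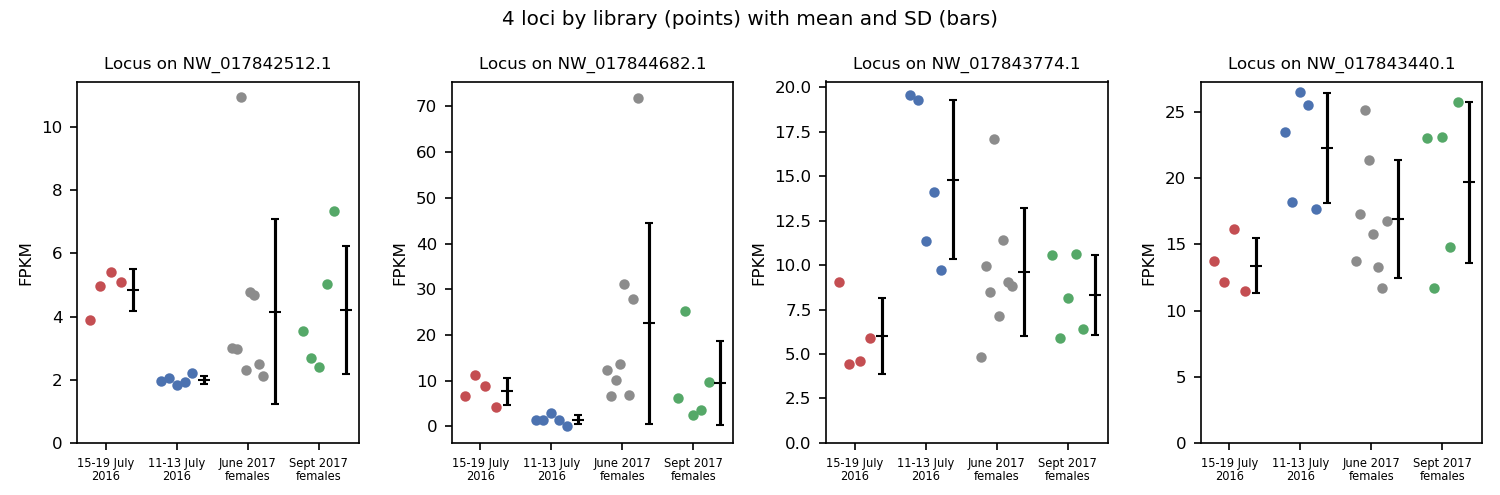
FPKM at the 4 loci in late July 2016 (red), early July 2016 (blue), June 2017 females (grey) and September 2017 females (green), with 1 point per library and bars for the mean and SD. The 2 July groups do not overlap at any of the 4 loci, which were chosen for this; the 2017 females spread over a wide range at each.

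Across all tested loci the libraries did not sort cleanly into late and early July. The first principal component of log2(FPKM + 1), with 23.5% of the variance, placed late 2 at 28.5, late 3 at 13.4, late 4 at 29.6 and early 5 at 31.0. Late 1 lay on the other side at -24.7, among early 1 at -25.1, early 2 at -34.6, early 3 at -13.6 and early 4 at -4.53. The library from 12 July thus stood with those of 18 and 19 July, and the one from 15 July stood with those of 11 and 13 July. The correlations across loci, which are not independent replicates, gave the same picture. Early 5 correlated with late 2 to late 4 at r from 0.956 to 0.959 and with the other 4 early libraries at r from 0.930 to 0.947. Late 1 correlated with the other late libraries at r from 0.937 to 0.945 and with early 1 to early 4 at r from 0.944 to 0.951.

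Pairs of libraries within late July (n = 6) had a median r of 0.950, pairs within early July (n = 10) 0.944 and pairs with 1 library from each group (n = 20) 0.945. The 4 pairs sampled on the same day ran from 0.944 to 0.954 (median 0.949). The 13 pairs sampled 1 to 3 days apart had a median of 0.945 and the 19 pairs sampled 4 to 8 days apart also 0.945. The spread among animals was alike in both groups: the median SD of a locus on the log2 scale was 0.266 in late July and 0.279 in early July, against 0.297 in June 2017 females and 0.269 in September 2017 females.

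**Figure D4:**
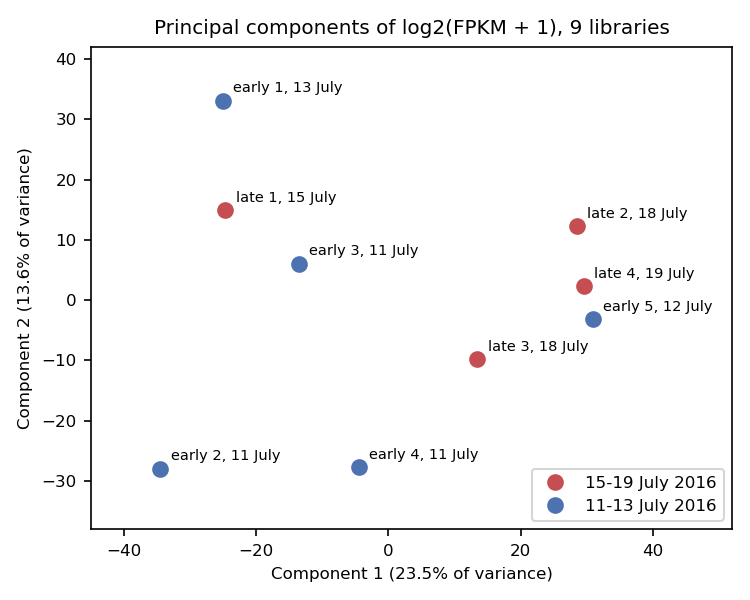
First and second principal components of log2(FPKM + 1) at the tested loci for the 9 July 2016 libraries, with late July in red and early July in blue and each point labelled with its replicate and day. Early 5 lies beside late 2 and late 4 on component 1, and late 1 lies beside early 1.

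Single animals stood out at few loci. At 92 loci 1 library lay above the other 8 by at least 4-fold on the log2(FPKM + 1) scale. Late 1 had 17 of these, late 2 had 11, late 3 had 3 and late 4 had 9, against 10, 14, 4, 14 and 10 in early 1 to early 5. One library lay as far below all others at 23 loci, 8 of which were in early 1.

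The mitochondrial genome encodes subunits of the respiratory chain and the ribosomal and transfer RNAs that its own translation needs, and its transcripts are made from long precursors. Its 12 loci of at least 500 bases, on sequence NC_012059.1 are described together. They took 2.21%, 4.36%, 3.56% and 4.26% of summed FPKM in late 1 to late 4, against 1.89%, 1.27%, 1.90%, 3.10% and 4.85% in early 1 to early 5. Late 2, late 3, late 4 and early 5 again formed the upper end, the same libraries as on the first principal component. With the log2 share as a covariate limma again called 0 loci, and 541 had an unadjusted p under 0.05.

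The mean was higher in late July at 10 of the 12 mitochondrial loci, with a median log2 difference of 0.62 over the 12, against -0.04 over all tested loci. The sign turned at 1 of the 12 with median of ratios scaling, and at 10 with the mitochondrial share, which these loci make up, as a covariate. None of the 12 was called, none had an unadjusted p under 0.05, and the groups overlapped at all 12. The background share at an unadjusted p under 0.05 was 4.93%. The most abundant, at positions 5363 to 6913 and overlapping another locus, held 8028, 13367, 12190 and 12129 FPKM in late 1 to late 4, against 7329, 5649, 7124, 11036 and 15804 FPKM in early 1 to early 5 (log2 difference 0.36, 95% interval -0.26 to 0.98). The locus at positions 3937 to 4978 had the largest log2 difference of the 12, 0.95 (95% interval -0.52 to 2.41). It held 103.0, 458.3, 272.8 and 404.7 FPKM in late 1 to late 4, against 97.3, 66.4, 72.9, 198.4 and 547.5 FPKM in early 1 to early 5, so that single animals of the same group differed more than 4-fold. The locus at positions 1114 to 2690 varied least and had a lower mean in late July, at 206.6 ± 18.5 FPKM (SD, n = 4) against 233.6 ± 20.1 FPKM (SD, n = 5) in early July (log2 difference -0.18, 95% interval -0.41 to 0.06). The locus at positions 73 to 1046 was nearly level, at 254.2 ± 63.0 FPKM in late July and 256.7 ± 61.2 FPKM in early July.

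Early 5 was the highest of the 9 libraries at 9 of the 12 mitochondrial loci, and late 1 was the lowest late library at all 12. Late 1 lay within the range of early 1 to early 4 at 10 of them. Late 2, late 3 and late 4 each lay above early 1, early 2 and early 3 at 11 of the 12. The mitochondrial share was 3.60% ± 0.993 (SD, n = 4) in late July and 2.60% ± 1.42 (SD, n = 5) in early July, and its difference of 0.997 percentage points did not pass the test (exact permutation test, two-sided, p = 0.286, adjusted p = 0.437).

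**Figure D5:**
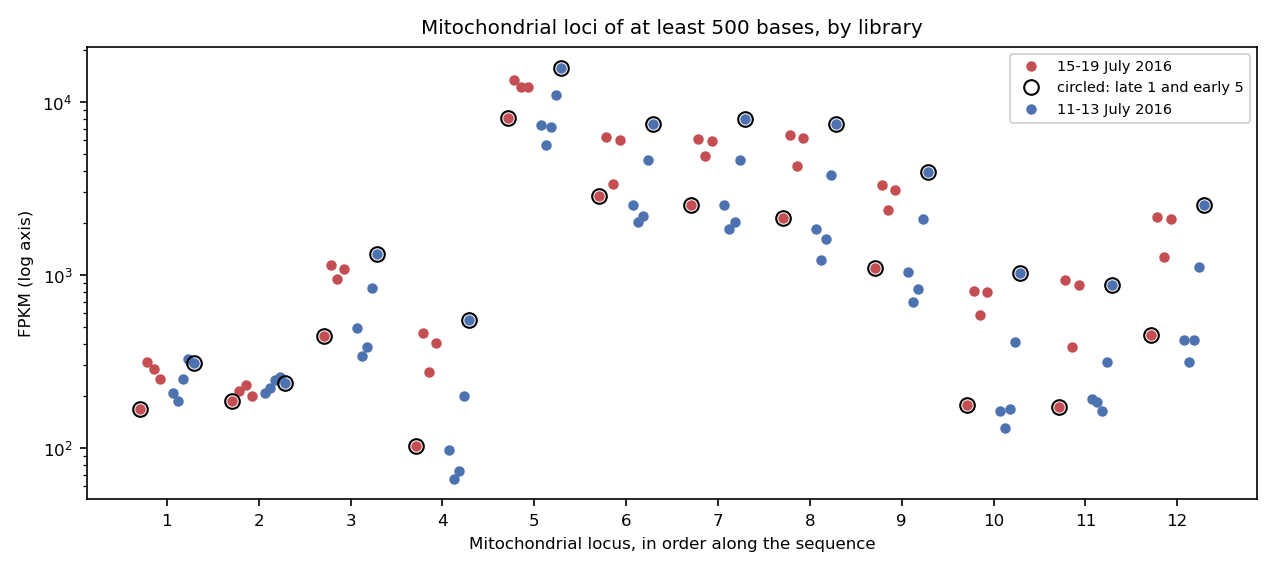
FPKM on a log axis at the 12 mitochondrial loci of at least 500 bases, numbered in order along the sequence, with late July libraries in red to the left of early July libraries in blue and late 1 and early 5 circled. The groups overlap at every locus, late 1 is the lowest red point throughout, and early 5 is the highest point at 9 of the 12.

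A short mitochondrial locus of 69 bases, at positions 14122 to 14190, is among the 20 most abundant loci of the series. It was listed at 0, 2458, 9581 and 2581 FPKM in late 1 to late 4, against 0 in early 1 to early 4 and 116522 FPKM in early 5. In early 5 it took 11.4% of summed FPKM. FPKM of loci this short are divided by a small length. Among loci of at least 1000 FPKM on average, the one with the highest coefficient of variation over the 28 libraries is 73 bases long. It lies on scaffold NW_017842470.1 and was listed at 0 in all 9 July libraries. It was also listed at 0 in all June libraries, in all September males and in 4 of the 5 September females. The remaining September female held 28303.7 FPKM, so a level of 0 was not particular to July.

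The 20 most abundant loci of the series had a median log2 difference of -0.07, with 7 higher and 13 lower in late July on average. Of the 20, 2 (10%) had an unadjusted p under 0.05 (limma), against 4.93% of all loci. On scaffold NW_017844407.1 the most abundant of all, at positions 34011 to 36278, held 49067 to 58976 FPKM in late July and 38115 to 60026 FPKM in early July (log2 difference 0.16, 95% interval -0.13 to 0.44). The second, at positions 751341 to 772519 of scaffold NW_017843467.1, held 23020, 24496, 26027 and 22319 FPKM in late 1 to late 4, against 53890, 56901, 25330, 60640 and 20609 FPKM in early 1 to early 5. Early July split into a high set of 3 animals and a low pair, and all late animals lay with the pair. The means were 23965 ± 1647 FPKM (SD, n = 4) in late July and 43474 ± 18944 FPKM (SD, n = 5) in early July, with a log2 difference of -0.73 (95% interval -1.42 to -0.03, unadjusted p = 0.0420, adjusted p = 0.910, limma). It overlaps another locus of the table.

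Among the 20 abundant loci 1 separated the groups, and 196 of all 13192 tested loci did (1.49%). At positions 38487680 to 38488004 of scaffold NW_017844625.1 the level was 11490, 8190, 9295 and 9215 FPKM in late 1 to late 4, against 13489, 13975, 12024, 11918 and 11987 FPKM in early 1 to early 5. All late animals lay below all early ones, with late 1 close to the early range (log2 difference -0.42, 95% interval -0.66 to -0.17, unadjusted p = 0.00326, adjusted p = 0.910, limma). On scaffold NW_017844169.1, a locus of 515 bases at positions 35881716 to 35882230 held 11413, 5863, 5963 and 5113 FPKM in late 1 to late 4, against 11865, 117990, 8312, 27088 and 2271 FPKM in early 1 to early 5. Early 2 stood far above the rest, and the locus took 11.6% of its summed FPKM, against 0.223% in early 5. Early 2 was also highest at 2 loci of scaffold NW_017844103.1, with 33163 FPKM at positions 869774 to 968370 against 12982 to 18535 FPKM in the other 8 libraries. At positions 763122 to 765392 of scaffold NW_017843553.1 the odd library was in late July: late 1 held 679 FPKM, late 2 to late 4 held 13490, 10377 and 7379 FPKM, and early 1 to early 5 held 5645 to 16467 FPKM. The one of the 20 with the lowest coefficient of variation over the 28 libraries held 5152 to 5770 FPKM in late July and 5451 to 6159.5 FPKM in early July, at positions 33910957 to 33913896 of scaffold NW_017844169.1.

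Median differences varied little with the length or level of loci. The median log2 difference was -0.04 in each of 4 length classes, from 3221 loci shorter than 5000 bases to 1520 longer than 100000 bases. At an unadjusted p under 0.05 were 5.53% of the shortest class, 5.40% of loci of 5000 to 20000 bases, 4.53% of loci of 20000 to 100000 bases and 3.68% of the longest. By level, the shares were 4.48% at a mean of 1 to 5 FPKM, 5.13% at 5 to 25 FPKM, 5.157% at 25 to 100 FPKM and 4.79% at 100 FPKM or more, where the median log2 difference was -0.01. The shares by level lie near the 4.93% of all loci, and those by length fell from the shortest class to the longest. At this p, 11 of the longest loci were higher and 45 lower in late July on the deposited scale. In the shortest class 74 were higher and 104 lower. Whether the classes differ was not tested.

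Very few loci were present in one part of July and absent in the other. Over the whole table of 24091 loci, 3 were listed at 0 in all late libraries and above 0 in all early ones, and 4 the other way round, together 0.0291%. Only 1 of the 7 averaged 1 FPKM or more over the series. It lies at positions 17805668 to 17806067 of scaffold NW_017842696.1, is 400 bases long, overlaps another locus and held 0.198 to 7.38 FPKM in the early libraries. The highest value among the loci at 0 throughout early July was 1.89 FPKM.

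Loci known from earlier results of these data to set July 2016 apart from June 2017 were looked at within July. They were chosen on a contrast that used the same July libraries, so that their distance from 2017 is a description. At positions 55626071 to 55633530 of scaffold NW_017844429.1 the level was 175.6, 155.9, 138.2 and 193.2 FPKM in late 1 to late 4 and 165.1, 254.1, 163.5, 177.3 and 221.1 FPKM in early 1 to early 5, against 34.1 to 81.7 FPKM in June 2017 females (n = 8). Both parts of July lay above every June 2017 female, and the late minus early log2 difference was -0.23 (95% interval -0.58 to 0.12, adjusted p = 0.910, limma). At positions 7159498 to 7174906 of scaffold NW_017843244.1 the level was 3.53, 4.51, 1.597 and 3.66 FPKM in late July and 5.96, 3.70, 6.91, 2.42 and 1.05 FPKM in early July, against 13.3 to 32.1 FPKM in June 2017 females. Both parts again lay wholly on one side of June 2017, with a late minus early log2 difference of -0.11 (95% interval -0.97 to 0.76). On scaffold NW_017843879.1, positions 10469066 to 10597095 were at 0 in all 4 late animals and in 4 of the 5 early animals, with 6.05 FPKM in early 4, against 2.58 to 9.1598 FPKM in June 2017 females. Both of the loci that were lower in July overlap another locus of the table. On scaffold NW_017844458.1, positions 26253993 to 26254308 held 39.2 to 86.8 FPKM in late July and 36.1 to 114.7 FPKM in early July, against 5.40 to 59.7 FPKM in June 2017 females, and overlapped in all 3 groups.

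Each part of July was also set against the 2017 females, in 1 limma fit of all 28 libraries in 6 groups of sampling period and sex. July 2016 and 2017 differ in year as well as in date, and late and early July share each set of 2017 libraries. Against June 2017 females, late July (n = 4) differed at 202 loci (1.53%), 121 higher (0.917%) and 81 lower (0.614%), and early July (n = 5) at 378 loci (2.87%), 282 higher (2.14%) and 96 lower (0.728%). Beyond 2-fold of FPKM + 1 were 18 higher and 22 lower for late July and 32 higher and 24 lower for early July. On the same scale the median called locus differed 1.54-fold for late July and 1.48-fold for early July. Against September 2017 females, late July differed at 31 loci (0.235%), 20 higher (0.152%) and 11 lower (0.0834%), and early July at 55 loci (0.417%), 42 higher (0.318%) and 13 lower (0.0985%). Early July has 1 animal more. With each of its 5 left out in turn, early July differed from June 2017 females at 215 to 290 loci and from September 2017 females at 12 to 44. Whether the counts of late and early July differ was not tested. The difference between the parts of July, tested in the same fit, was called at 0 loci.

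These counts leaned on single libraries. Late July against June 2017 females came to 18 called loci without late 2, 41 without late 4 and 80 without late 3, and early July against June 2017 females to 215 without early 1 and 226 without early 3. Against September 2017 females, late July differed at 12, 10, 11 and 0 loci without late 1, late 2, late 3 and late 4. Early July differed from September 2017 females at 12, 27, 27 and 33 loci without early 1, early 2, early 3 and early 4, and at 34 without late 4, which enters that fit only through the shared spread. The share of called loci that were higher in July moved with the scaling. For late and early July against June 2017 females it was 59.9% and 74.6% on the deposited scale, 48.0% and 51.2% with median of ratios scaling, and 41.0% and 51.9% with quantile normalization. Against September 2017 females it was 64.5% and 76.4% on the deposited scale, 68.3% and 65.9% with median of ratios scaling, and 35.3% and 56.5% with quantile normalization.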

How the data were processed

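Skin RNA of 28 dolphins was sequenced from directional libraries (labels' protocols). Tools listed in the submitters' processing notes are Cufflinks 2.2.1, TopHat2 2.1.1, Bowtie, Trimmomatic 0.33 and FastQC 0.1. The design text names the NIST Tur_tru v1 genome. The annotation, settings and strand option are not given in any source used here. FPKM values were made by the authors, who deposited 1 table with a column per library; the unit is taken as FPKM because Cufflinks writes that unit and the values are not whole. Where FPKM is scaled to the total of the library, 1 very abundant locus can lower the others. The total used for scaling is not given, and whether this occurred here was not tested. Of the tested loci 3507, or 26.6%, overlap another, and their fragments cannot be told apart without strand.

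Values were taken as log2(FPKM + 1), which understates changes of low loci. Late July was compared with early July in the 9 libraries alone (limma 3.58.1 in R 4.3.3, trend and robust settings, 7 residual degrees of freedom, two-sided), after the model was tested on simulated data. Library measures were compared with exact permutation tests over all 126 splits. Relative depth came from ratios of low values at 4754 loci, and the total depth is unknown. No batch of extraction or sequencing is given in the sources used here. The members and lists were chosen with earlier results of these data known. The rule for named loci took, with 0 calls and no gene symbols, the 2 loci with the smallest unadjusted p in each direction among those whose groups do not overlap. Alternatives changed the scaling, pseudocount, filter, covariates, days and libraries. Gene lists by symbol could not be used. Figures were drawn with matplotlib 3.10.9.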

Additional observations from a re-analysis of the deposited data

Results flagged for a closer look

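Within each July group, values of the 5 library measures and of the loci described above were screened for a single library that lay far from the other libraries of its group. Of the 87 sets of values screened, 10 had one. For normally distributed values chance gives about 1 such case in 20. FPKM were screened without taking logs, so that rate need not hold here and no excess over chance was tested. Where all other animals of a group were listed at 0, any value above 0 was flagged. The sets share libraries and are not independent.

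Early 2 was far above the other early animals at 4 abundant loci. It held 117990 FPKM at positions 35881716 to 35882230 of scaffold NW_017844169.1 (next highest 27088), 33163 FPKM at positions 869774 to 968370 (next 15975) and 20633 FPKM at positions 941465 to 943477 of scaffold NW_017844103.1 (next 7251), and 5994 FPKM at positions 28594382 to 28595498 of scaffold NW_017842452.1 (next 4883). The 2 loci of scaffold NW_017844103.1 overlap each other. Early 5 was far above the other early animals at mitochondrial positions 3937 to 4978 with 547.5 FPKM (next 198.4), at 13594 to 14121 with 871.8 FPKM (next 313.8) and at 14122 to 14190 with 116522 FPKM (the others 0), and it had 18173 loci above 0 (next 17708). Early 4 held 6.05 FPKM at positions 10469066 to 10597095 of scaffold NW_017843879.1, where the other early animals were listed at 0. In late July, late 1 held 11413 FPKM at positions 35881716 to 35882230 of scaffold NW_017844169.1 (next 5963), well below early 2 at the same locus.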

How the results depend on the processing

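The count of 0 loci called between late and early July was also found in 19 of 23 alternatives. In the 14 that did not leave out a single library, 470 to 1482 loci had an unadjusted p under 0.05 (limma). The main comparison had 650 of 13192, or 4.93%. The 470 came with a mean of at least 5 FPKM, where fewer loci were tested. The 1482 came with 11 July against 18 and 19 July, over the same 13192 loci. With 11 July against 18 and 19 July alone 2 loci were called, and with single libraries left out 0 to 2. The log2 differences of the 4 named loci kept their sign in all 91 values from alternatives that tested them, and none was called. These loci were chosen because their groups do not overlap. Leaving out libraries or changing the pseudocount or filter could therefore not turn their sign, and the kept signs give no separate support. With the day of July as a number no locus was called, and 931 of the 13192 had an unadjusted p under 0.05 (limma). Of 35 other loci described with a difference other than 0, 26 had the other sign in at least 1 alternative. Among the 26 were 10 mitochondrial loci whose sign turned only with the mitochondrial share, which they help make up, as a covariate.

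Against September 2017 females, late July differed at 17 loci and early July at 23 with quantile normalization, and late July at 49 with a mean of at least 5 FPKM. With no filter, early July differed from September 2017 females at 36 loci and late July from June 2017 females at 117. With single July libraries left out, the counts ran from 18 to 190 for late July and from 215 to 374 for early July against June 2017 females, and from 0 to 34 and from 12 to 73 against September 2017 females. The late minus early differences then ran from 0.664 to 1.56 percentage points for the mitochondrial share, -6.33 to -3.25 for the 10 most abundant loci, -81322 to -29298 for summed FPKM, 0.0299 to 0.170 for relative depth and 92.1 to 260.5 for loci above 0. No paired analysis was possible because replicate numbers only follow the order of accession. The number of animals limits what can be detected, and total depth is unknown.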

Other observations

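The loci that passed in single alternatives were low or absent in most animals of early July, and are named here after their values were seen. Each call with 1 library left out arose on dropping an animal whose value lay with the other part of July. The adjusted p-values cover the loci of 1 alternative and are not adjusted for the 23 alternatives. At positions 17736610 to 17745574 of scaffold NW_017842794.1 the level was 4.13, 7.38, 4.15 and 0 FPKM in late 1 to late 4, against 0 in all 5 early animals. It was called without late 4 (log2 difference 2.60, adjusted p = 0.0178, limma), and with all 9 libraries the log2 difference was 1.95 (unadjusted p = 0.00296). Also called without late 4 was the locus at positions 12264429 to 12265000 of scaffold NW_017842456.1, with 4.19, 3.78, 4.24 and 0.114 FPKM in late July, against 0 to 0.603 FPKM in early July (log2 difference 2.103, adjusted p = 0.0446, limma).

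At positions 3504134 to 3509503 of scaffold NW_017842989.1 late animals held 3.15, 2.91, 3.18 and 3.40 FPKM, against 3.64 FPKM in early 1 and 0 in early 2 to early 5. It was called without early 1 (log2 difference 2.05, adjusted p = 0.0194, limma), the library that matched the late ones, and it overlaps another locus. At positions 1538592 to 1538900 of scaffold NW_017842757.1 late animals held 27.5, 12.5, 26.6 and 39.9 FPKM, against 0, 0, 16.4, 1.91 and 0.856 FPKM in early 1 to early 5, and it was called without early 3 (log2 difference 4.07, adjusted p = 0.0384, limma). With 11 July against 18 and 19 July alone, the calls were the 69-base mitochondrial locus (adjusted p = 0.000938, limma), where early 5 from 12 July, left out there, holds the highest value, and positions 455702 to 462371 of scaffold NW_017842945.1 (adjusted p = 0.0450, limma). That second locus overlaps another and held 0, 7.999, 4.89 and 5.13 FPKM in late 1 to late 4, against 15.5 FPKM in early 1 and 0 in early 2 to early 5. Late 1 and early 1 were also left out of that comparison of days.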
